A study of Mus musculus with 16 samples.

Results

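Long-chain fatty acids reach hepatocyte metabolism in 3 steps: they cross the plasma membrane, are carried through the cytosol, and are joined to coenzyme A. The 10 genes described here serve these steps and were chosen by name: Cd36, Slc27a2 and Slc27a4 for uptake, Fabp1, Fabp2 and Fabp4 for binding, and Acsl1, Acsl3, Acsl4 and Acsl5 for activation. All 10 were found among the 25803 genes of the deposited tables, and all 10 passed the filter on low counts, with between 82 counts (Acsl3) and 132583 counts (Fabp1) in a library.

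CD36 is a membrane scavenger receptor that binds fatty acids, and the SLC27 proteins (FATP) move them inward while also acting as very-long-chain acyl-CoA synthetases. The FABP proteins are small cytosolic carriers, of which Fabp1 is the liver form, Fabp2 the intestinal form and Fabp4 the form of adipocytes and macrophages. The ACSL enzymes make long-chain acyl-CoA, the substrate both of CPT1A, which opens the way to mitochondrial oxidation, and of triglyceride synthesis. Several of these genes are known targets of PPARA, the fatty acid receptor that drives the fasting response of liver.

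The study profiled livers of male mice kept on a high-fat diet for 12 weeks, by poly-A RNA sequencing in 16 libraries. The 4 groups of 4 libraries were fasted control, fasted LKO, refed control and refed LKO, where fasted means a 16 h fast and refed the same fast with 6 h of refeeding. Control mice carry the genotype label Control and are called WT in the design text. LKO mice are labelled CPT1a LKO, and the series title speaks of hepatic CPT1a, so LKO is read here as loss of Cpt1a from liver. The labels used here give no strain, age, floxed allele, Cre driver or littermate relation. All 4 groups share the diet, so no comparison with a lean liver is made.

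Libraries held 14721601 to 24618230 counts and are named S40 to S55 (fasted control is S40 to S43, fasted LKO is S44 to S47, refed control is S48 to S51 and refed LKO is S52 to S55). Levels are CPM, a gene's count scaled by the TMM-adjusted library total, and CPM per kb where genes are compared with each other. The targeted gene Cpt1a stood at 487 ± 83.2 CPM in fasted control and 101 ± 17.3 CPM in fasted LKO, and at 457 ± 137 and 54.2 ± 16.6 CPM in the refed groups (SD, n = 4). Hepatocyte markers (Alb, Ttr and 6 others) were present in every library, and 1 of the 8, Ttr, was called between the genotypes (lower in fasted LKO). Of all genes tested 12.2% were called when fasted and 3.63% when refed. Estimates were below 0 in LKO for 7 of the 8 markers in each feeding state. Of all genes tested 52.5% were above 0 when fasted and 47.8% when refed. The edgeR unadjusted p was under 0.05 for 5 of the 8 when fasted and for 4 when refed. No share of all genes at that unadjusted level is given for these contrasts, so these counts have nothing to be read against. The summed level of the 8 markers was 81276 to 89424 CPM in fasted control and 65580 to 76696 CPM in fasted LKO. When refed it was 77939 to 98122 CPM in control and 69216 to 80257 CPM in LKO. Cholangiocyte markers summed to 45.9 CPM in S44 and to between 4.14 and 10.9 CPM in the other 15 libraries. Stellate cell markers summed to between 132.6 and 179.5 CPM for fasted control and between 169.7 and 218.2 CPM for fasted LKO, highest there in S44 and S46, where Fabp1 and Fabp4 were also highest within that group. Of these 6 markers Dcn was called higher in fasted LKO (0.36, edgeR adjusted p = 0.0413). All 6 estimates were above 0 in fasted LKO, with a median of 0.38 against 0.02 over all genes tested. In refed LKO 2 were above 0 and 4 below. When refed the stellate markers summed to between 152.3 and 226.5 CPM (control) and between 159 and 184.5 CPM (LKO). The part of these marker lists in the results below was not tested, and in bulk liver fewer cells of a type and less RNA per cell cannot be told apart.

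In fasted LKO liver Fabp2, Acsl5, Acsl1, Fabp1 and Slc27a2 were higher than in fasted control, by 1.36-fold to 1.78-fold. Called here means an adjusted p under 0.05 (quasi-likelihood test of edgeR, Benjamini-Hochberg adjustment over all 14488 genes tested), printed as edgeR adjusted p. The 5 of 10 called compare with 12.2% of all genes tested; 5.75% were called higher and 6.48% lower. The count was 3 without S43 (fasted control), without S44 (fasted LKO), or with only these groups in the fit, and 6 by DESeq2 or after filtering at a 5 CPM mean, with Slc27a4 added. All 10 estimates were above 0, where 52.5% of all genes tested were, and the median log2 fold change of the 10 was 0.57 against 0.02 over all genes. For 4 of the 10 (Slc27a2, Fabp2, Acsl1 and Acsl5) the 2 groups did not overlap, as for 16.9% of all genes tested.

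After refeeding only Fabp2 among the 10 was called between the genotypes (higher in LKO), a share to be read against 3.63% of all genes tested (2.28% called higher, 1.35% lower). For 3 of the 10, Fabp1, Fabp2 and Acsl5, the refed groups did not overlap, as for 11.7% of all genes. Fabp1 and Acsl5 missed the call narrowly, and 3 members were called by DESeq2, after filtering at a 5 CPM mean, or with only the refed groups in the fit. The median of the 10 was 0.26, against −0.01 over all genes tested, with 7 estimates above 0 where 47.8% of all genes were.

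Refeeding itself was tested within each genotype, in comparisons that share their groups with those above. In control liver Acsl3 and Acsl4 rose and Slc27a4 fell, 3 of 10 members against 15.4% of all genes tested (7.79% called higher, 7.65% lower). In LKO liver Acsl3 rose and Slc27a2, Slc27a4, Acsl1 and Acsl5 fell, 5 of 10 members against 18.1% of all genes (9.28% called higher, 8.78% lower). The LKO count was 3 when S44, S52, S54 or S55 was left out, with no filter on low counts, and with only the LKO groups in the fit, and 6 by DESeq2, with Acsl4 added. Groups did not overlap for 3 members in control (Fabp2, Acsl3 and Acsl4) and for 4 in LKO (Slc27a2, Slc27a4, Acsl1 and Acsl3), where 20.4% and 20.6% of all genes did not.

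The difference between the genotype effects of both feeding states, the interaction, was called for 0 of the 10 members by edgeR, where 0.538% of all genes tested were called. At an unadjusted p under 0.05 there were 3 members (Acsl1, Acsl5 and Fabp4), where 16.5% of all genes reached that level. DESeq2 called 1 member, Acsl1, and limma-voom called 0. A gene called in one feeding state and not in the other is therefore not shown to respond differently, with the values for Acsl1 given below.

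**Figure D1:**
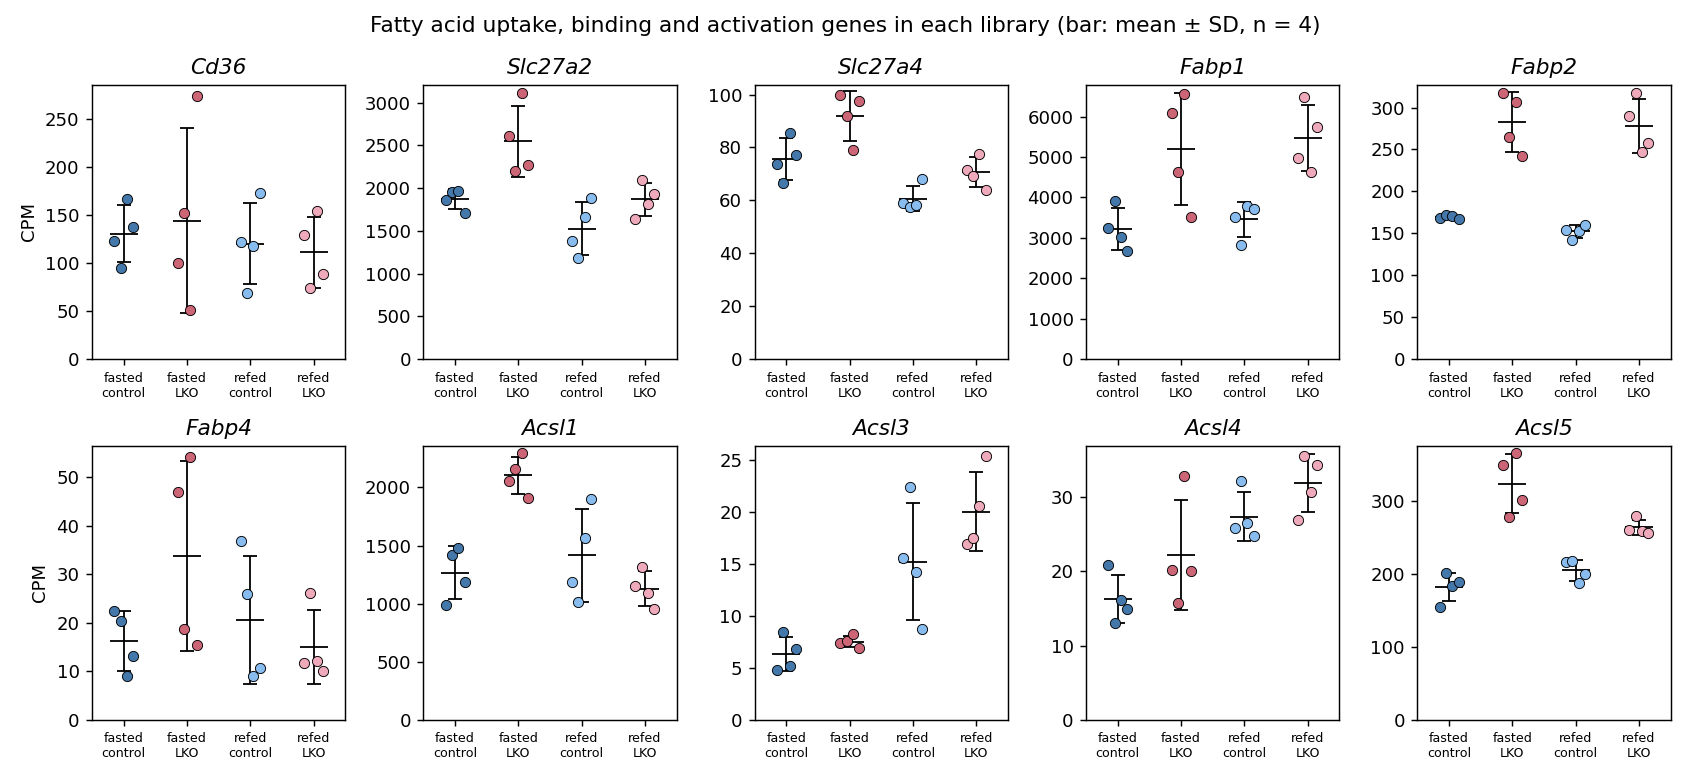
CPM of each of the 10 genes in the 16 libraries (1 point per library, y axis in CPM from 0, bar at the mean ± SD of 4 libraries). Fabp2 separates the genotypes in both feeding states, at 167 to 172 against 242 to 318 CPM fasted and at 142 to 160 against 247 to 317 CPM refed, while Cd36 and Fabp4 spread widely within every group.

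Uptake genes come first. Slc27a2 (FATP2; ENSMUSG00000027359, chromosome 2 from 126394327 to 126430163) encodes the main fatty acid transport protein of hepatocytes. Fasted control libraries held 1860, 1957, 1962 and 1703 CPM of it and fasted LKO libraries 2609, 2200, 3109 and 2274 CPM. The lowest fasted LKO library lay above the highest fasted control library. In refed control the values were 1377, 1176, 1657 and 1888 CPM, and in refed LKO 1633, 2091, 1818 and 1932 CPM, with overlap between the genotypes. Slc27a2 was higher in fasted LKO by a log2 fold change of 0.45 (SE 0.14, edgeR adjusted p = 0.0491). Leaving out 1 library at a time ended this call in 6 of 8 fits (edgeR adjusted p from 0.035 to 0.156 over the 8, log2 fold change 0.34 to 0.50). The refed difference was 0.29 (SE 0.14, edgeR adjusted p = 0.281). Refeeding lowered Slc27a2 in LKO (−0.45, SE 0.14, edgeR adjusted p = 0.0369), a call lost in 5 of 8 such fits, and the control estimate was −0.29 (SE 0.14, edgeR adjusted p = 0.173).

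Slc27a4 (FATP4; ENSMUSG00000059316, chromosome 2 from 29692646 to 29707534) is best known from the small intestine. Fasted control libraries held 73.6, 66.5, 85.5 and 77.3 CPM and refed control libraries 59.0, 57.6, 58.1 and 67.9 CPM. Fasted LKO libraries held 99.7, 91.9, 78.9 and 97.6 CPM and refed LKO libraries 71.5, 69.2, 77.7 and 64.1 CPM. In LKO all 4 fasted libraries were above all 4 refed libraries, and in control 1 refed library, S51, reached into the fasted range. The fall on refeeding was −0.32 in control (SE 0.10, edgeR adjusted p = 0.0326) and −0.38 in LKO (SE 0.10, edgeR adjusted p = 0.0108). The control call was lost in 6 of 8 fits without 1 library (edgeR adjusted p up to 0.0987, without S42), and the LKO call in 0 of 8. The LKO estimate of Slc27a4 was 0.28 (SE 0.10, edgeR adjusted p = 0.0649) when fasted and 0.22 when refed (SE 0.10, edgeR adjusted p = 0.227), neither of them called. The fasted estimate was called by DESeq2 (adjusted p = 0.0469), after filtering at a 5 CPM mean (edgeR adjusted p = 0.0473), without S42 (0.048) and without S46 (0.0334).

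Cd36 (ENSMUSG00000002944, chromosome 5 from 17986688 to 18093799) was called in 0 of the 5 contrasts, also under DESeq2 and limma-voom, and had an unadjusted p of at least 0.352 in each. Fasted control libraries held 123, 95.3, 167 and 138 CPM, and fasted LKO libraries 99.6, 153, 50.8 and 274 CPM. Within fasted LKO the highest library, S47, was 5.4 times the lowest, S46. Refed control libraries held 122, 69.0, 117 and 173 CPM, and refed LKO libraries 129, 73.6, 154 and 88.5 CPM. All 4 groups overlapped. The fasted genotype estimate was 0.14 (SE 0.39, edgeR adjusted p = 0.859), and it ran from −0.37 to 0.42 when 1 library was left out, so neither its sign nor its size was settled at this spread. The refed estimate was −0.11 (SE 0.39, edgeR adjusted p = 0.92).

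Of the binding proteins, Fabp2 and Fabp1 were called between the genotypes when fasted, and Fabp2 also when refed. Fabp2 (ENSMUSG00000023057, chromosome 3 from 122688721 to 122693155) stood at 169, 172, 170.2 and 167 CPM in fasted control and at 318, 265, 306 and 242 CPM in fasted LKO. In refed control it stood at 154, 142, 153 and 160 CPM and in refed LKO at 290.2, 317, 247 and 257 CPM. All 8 LKO libraries were above all 8 control libraries. The log2 fold change was 0.74 when fasted (SE 0.10, edgeR adjusted p = 2.96e-04) and 0.87 when refed (SE 0.10, edgeR adjusted p = 2.23e-04), and both calls held in each of the 15 alternatives run for that state. Refeeding estimates were −0.15 in control and −0.02 in LKO (edgeR adjusted p = 0.3 and 0.896). Enterocyte markers were next to absent: 3 of the 6 listed genes (Vil1, Lct and Alpi) had counts, and they summed to at most 1.65 CPM, in S44. Fasted control sums ran from 0.0 to 0.309 CPM, fasted LKO from 0.124 to 1.65, refed control from 0.0398 to 0.272 and refed LKO from 0.0 to 0.719 CPM. All 3 were at 0 in S42 and S54, where Fabp2 held 170.2 and 247 CPM. S44, with the highest sum, also held the most Fabp2 of any library (318 CPM). In most libraries Lct and Alpi were at 0, so the sum there was Vil1 alone. The part of enterocytes in the Fabp2 values was not tested.

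Fabp1 (ENSMUSG00000054422, chromosome 6 from 71176811 to 71182007), the major fatty acid carrier of hepatocytes, was at 3238, 3908, 3029 and 2667 CPM in fasted control and at 6086, 4619, 6560 and 3518 CPM in fasted LKO. Only S47 among the fasted LKO libraries lay within the control range. Refed control libraries held 3526, 2823, 3785 and 3705 CPM and refed LKO libraries 4986, 6475, 4638 and 5743 CPM, without overlap. The log2 fold change was 0.69 when fasted (SE 0.18, edgeR adjusted p = 0.0186) and 0.66 when refed (SE 0.18, edgeR adjusted p = 0.0508). The fasted call was lost without S42 (0.0555), S43 (0.061), S44 (0.0608) or S46 (0.0661), all as edgeR adjusted p. The refed estimate was called in 5 of 7 alternatives that kept all refed libraries and in 0 of the 8 that left out 1. The interaction was −0.04 (SE 0.25, edgeR adjusted p = 0.959), and refeeding moved Fabp1 by 0.11 in control and 0.07 in LKO (edgeR adjusted p = 0.728 and 0.823).

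Promoter letters are shown for Fabp1 and Fabp2, the binding proteins called in fasted LKO, and for Cd36, which was called in no contrast. Each is the 250 bases before a listed RefSeq start in GRCm38.p6, written 5′ to 3′ on the gene's strand (chr6:71199629-71199878 on the + strand, chr3:122894822-122895071 on the + strand and chr5:17835897-17836146 on the − strand). The processing notes name another build, mm39, so these positions cannot be set against the gene coordinates given with each member. Capitals mark matches to AGGTCA, the core motif of many nuclear receptors, or to a pair of AGGNCA copies in direct repeat with 1 base between them, the layout of a PPAR element, searched on both strands.
Fabp1: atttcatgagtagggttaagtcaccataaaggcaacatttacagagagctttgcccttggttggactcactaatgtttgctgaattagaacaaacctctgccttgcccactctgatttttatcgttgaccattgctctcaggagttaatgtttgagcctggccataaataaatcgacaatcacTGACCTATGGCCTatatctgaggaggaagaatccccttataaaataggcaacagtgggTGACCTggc
Fabp2: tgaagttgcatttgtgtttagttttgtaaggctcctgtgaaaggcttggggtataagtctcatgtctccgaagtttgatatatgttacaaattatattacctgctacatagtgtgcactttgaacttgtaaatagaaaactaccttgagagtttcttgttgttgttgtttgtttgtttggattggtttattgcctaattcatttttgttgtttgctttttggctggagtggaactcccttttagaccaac
Cd36: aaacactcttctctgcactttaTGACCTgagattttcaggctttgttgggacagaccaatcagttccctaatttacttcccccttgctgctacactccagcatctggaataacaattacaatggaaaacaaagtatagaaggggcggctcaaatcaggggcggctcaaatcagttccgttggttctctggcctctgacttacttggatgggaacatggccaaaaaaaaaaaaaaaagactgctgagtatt
Fabp1 held a match to the paired motif on the opposite strand, from 67 to 55 bases before the start, which contains an AGGTCA match, and a further AGGTCA match from 9 to 4 bases before it. The paired motif occurred in 111 of 32851 RefSeq promoters of this length (0.338%), and in 1 of the 10 promoters listed for 9 of the members. AGGTCA alone occurred in 14.0% of all promoters and in those of Fabp1, Cd36 (228 to 223 bases before the start) and Slc27a2 (220 to 215). These letters were not in the Fabp2 window, which says nothing of other positions, and a match is not a measured binding site.

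Fabp4 (ENSMUSG00000062515, chromosome 3 from 10269148 to 10273636) was called in 0 of the 5 contrasts, also under DESeq2 and limma-voom, with 3 of the 5 at an unadjusted p under 0.05. Fasted control libraries held 22.3, 20.4, 9.10 and 13.1 CPM, and fasted LKO libraries 46.9, 18.7, 54.1 and 15.3 CPM. In fasted LKO, S44 and S46 were above every other library of the study while S45 and S47 lay within the control range. Refed control libraries held 36.8, 26.0, 9.03 and 10.7 CPM, and refed LKO libraries 11.6, 26.2, 12.2 and 10.1 CPM. The estimates were 1.05 when fasted (SE 0.48, edgeR adjusted p = 0.173) and −0.46 when refed (SE 0.49, edgeR adjusted p = 0.673). The interaction was −1.52 (SE 0.69, edgeR adjusted p = 0.277).

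Cells other than hepatocytes are known to express Fabp4, so their markers were read beside it. The 8 adipocyte markers listed differed widely in level. Adipoq held at most 9 counts, Plin1 10, Retn 4 and Lep 4 counts in a library. Trarg1 held at most 18, Adrb3 182 and Cfd 993 counts, each in S40, and Cidec 7073 counts, in S44. The 8 adipocyte markers summed to between 55 and 142 CPM for fasted control, 159 and 360 for fasted LKO, 15.2 and 124 for refed control, and 72.2 and 114 CPM for refed LKO. By group mean the greater part was Cidec, a lipid droplet gene that fatty liver also expresses. Of the 4 adipocyte markers tested in the fasted contrast, Cidec was called higher in LKO (2.20, SE 0.50, edgeR adjusted p = 0.00984) and Cfd and Adrb3 were called lower. Resident macrophage markers summed to 252 to 466, 312 to 445, 215 to 822 and 226 to 334 CPM in the same order of groups. Of these 8, edgeR called 0 in either genotype contrast. Estimates were below 0 in LKO for 7 of the 8 when fasted and for all 8 when refed. Of all genes tested 52.5% and 47.8% were above 0. The edgeR unadjusted p was under 0.05 for 0 when fasted and for 5 when refed, with no share of all genes at that level given. Endothelial markers summed to 171 to 212, 171 to 198, 133 to 208 and 158 to 207 CPM, with Clec4g called higher in refed LKO (0.44, edgeR adjusted p = 0.0388). Recruited macrophage markers summed to 33.2 to 64.2, 32.3 to 72.8, 27.8 to 63.7 and 36.1 to 40.1 CPM, with Ly6c2 called higher in refed LKO (1.63, edgeR adjusted p = 0.0337). The part of these cells in the Fabp4 values was not tested.

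**Figure D2:**
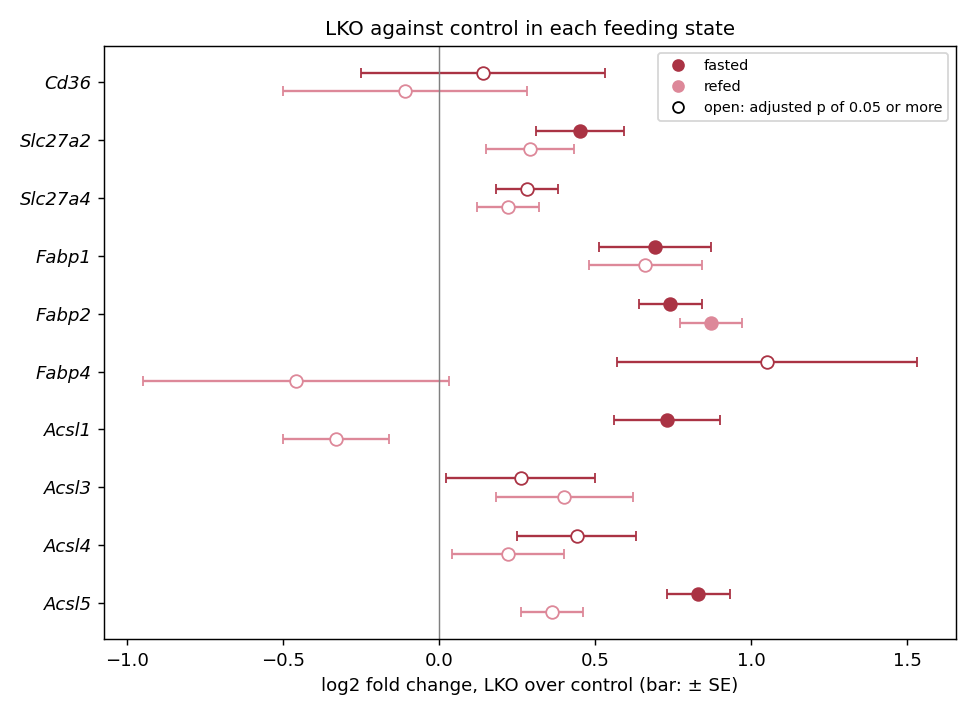
Log2 fold change of LKO over control (x axis, bars ± SE) for the 10 genes, fasted in dark and refed in light red, filled where the edgeR adjusted p is under 0.05. Fabp2 is filled in both states, at 0.74 and 0.87, and Acsl1 lies at 0.73 fasted and −0.33 refed.

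Of the activation enzymes, Acsl5 and Acsl1 were called between the genotypes when fasted, and no test compared the isoforms with each other. Acsl5 (ENSMUSG00000024981, chromosome 19 from 55240370 to 55286152), an isoform of mitochondria and endoplasmic reticulum, stood at 155, 201, 184 and 188 CPM in fasted control and at 349, 278, 365 and 301 CPM in fasted LKO. Refed control libraries held 217, 217, 187 and 199 CPM and refed LKO libraries 260, 279, 259 and 255 CPM. In each feeding state every LKO library was above every control library. The log2 fold change was 0.83 when fasted (SE 0.10, edgeR adjusted p = 2.38e-04), kept in each of 15 alternatives, and 0.36 when refed (SE 0.10, edgeR adjusted p = 0.0526). The refed estimate was called in 4 of 7 alternatives that kept all refed libraries, among them DESeq2 with an adjusted p of 0.0129, and in 0 of 8 that left out 1. Refeeding lowered Acsl5 in LKO (−0.30, SE 0.10, edgeR adjusted p = 0.0477), a call lost in 6 of 8 fits without 1 library, and the interaction was −0.47 (SE 0.14, edgeR adjusted p = 0.115).

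Acsl1 (ENSMUSG00000018796, chromosome 8 from 46924074 to 46989088) is the main long-chain acyl-CoA synthetase of liver. Fasted control libraries held 985, 1417, 1481 and 1186 CPM and fasted LKO libraries 2059, 2157, 2293 and 1907 CPM. Refed control libraries held 1182, 1011, 1566 and 1905 CPM and refed LKO libraries 1152, 1314, 1092 and 955 CPM. The 4 fasted LKO libraries were above all 12 others, S47 (1907 CPM) only just above refed control S51 (1905 CPM), and the refed genotypes overlapped. Acsl1 was higher in fasted LKO (0.73, SE 0.17, edgeR adjusted p = 0.0126), kept in each of 15 alternatives, and its refed estimate was −0.33 (SE 0.17, edgeR adjusted p = 0.335). Refeeding lowered it in LKO (−0.90, SE 0.17, edgeR adjusted p = 0.00221) and its control estimate was 0.16 (SE 0.17, edgeR adjusted p = 0.575). The test of the difference itself, the interaction, was −1.06 (SE 0.25) and missed the call (edgeR adjusted p = 0.0579). It passed under DESeq2 (adjusted p = 0.00363), under upper quartile scaling (edgeR adjusted p = 0.048), after filtering at a 5 CPM mean (0.0386) and without S49 (0.0286), and its adjusted p reached 0.123 when other libraries were left out.

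Acsl3 (ENSMUSG00000032883, chromosome 1 from 78635542 to 78685460), an isoform of the endoplasmic reticulum and lipid droplets, responded to refeeding in both genotypes. It stood at 4.82, 8.40, 5.18 and 6.79 CPM in fasted control and at 15.5, 22.4, 14.2 and 8.69 CPM in refed control. Fasted LKO libraries held 7.34, 7.58, 8.24 and 6.90 CPM and refed LKO libraries 16.9, 17.5, 20.5 and 25.3 CPM. All 8 refed libraries were above all 8 fasted libraries, with S51 (8.69 CPM) closest. The rise was 1.28 in control (SE 0.23, edgeR adjusted p = 0.00257) and 1.42 in LKO (SE 0.23, edgeR adjusted p = 6.07e-04), kept in each of 15 alternatives per genotype. The genotype estimates of 0.26 and 0.40 were not called (edgeR adjusted p = 0.539 and 0.365), and the interaction was 0.14 (SE 0.33, edgeR adjusted p = 0.868).

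Acsl4 (ENSMUSG00000031278, X chromosome from 141100989 to 141173531), an isoform that prefers arachidonic acid, rose on refeeding of control liver, from 20.8, 13.1, 16.2 and 15 CPM to 25.9, 32.2, 26.5 and 24.8 CPM without overlap (0.75, SE 0.19, edgeR adjusted p = 0.0148). In LKO it went from 20.2, 15.8, 32.8 and 20 CPM to 26.9, 35.6, 30.7 and 34.3 CPM, and the estimate of 0.52 (SE 0.19) was not called (edgeR adjusted p = 0.0631). Fasted LKO library S46, at 32.8 CPM, lay among the refed values. With all libraries kept the LKO estimate was called by DESeq2 (0.53, adjusted p = 0.0447) and limma-voom (0.56, adjusted p = 0.0362), and without S46 it was 0.77 (edgeR adjusted p = 0.00359). The interaction was −0.23 (SE 0.26, edgeR adjusted p = 0.712). Genotype estimates were 0.44 fasted and 0.22 refed (edgeR adjusted p = 0.141 and 0.578).

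**Figure D3:**
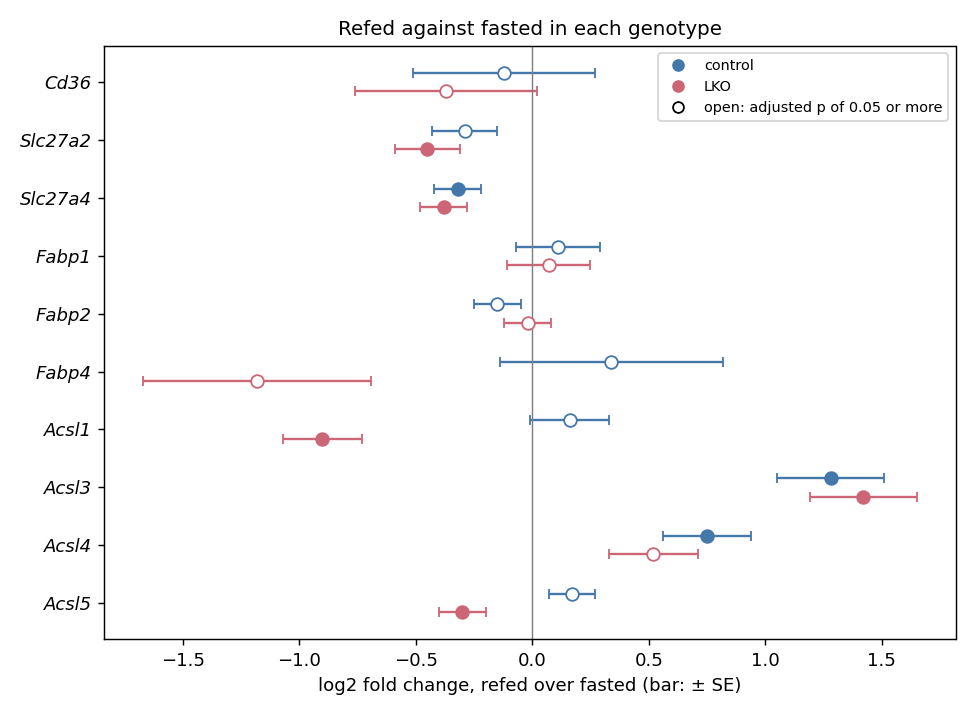
Log2 fold change of refed over fasted (x axis, bars ± SE) for the 10 genes, control in blue and LKO in red, filled where the edgeR adjusted p is under 0.05. Acsl3 is filled in both genotypes at 1.28 and 1.42, and Acsl1 lies at 0.16 in control and −0.90 in LKO.

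Levels of the members were then ordered per length, as CPM per kb with the gene lengths of the deposited tables. In fasted control Fabp1 came first at 5806 ± 943, followed by Slc27a2 at 498 ± 32.2, Fabp2 at 176 ± 2.39 and Acsl1 at 121 ± 21.7 CPM per kb (SD, n = 4). Acsl5 (37.4 ± 4.01) and Cd36 (36.4 ± 8.37) did not differ beyond their spread, and Slc27a4 stood at 17.2 ± 1.79 CPM per kb. Fabp4 (3.61 ± 1.38) and Acsl4 (3.02 ± 0.604) did not differ beyond their spread either, and Acsl3 was lowest at 1.45 ± 0.378 CPM per kb. The lengths matter for 2 members: the deposited length of Acsl1 is 10483 bases against 3897 for its longest coding transcript in GENCODE M21, and that of Fabp4 is 4489, its whole genomic span, against 896. With transcript lengths Acsl1 (325 ± 58.3 CPM per kb) lay above Fabp2 (176 ± 2.39), and Fabp4 (18.1 ± 6.90) beside Slc27a4 (18.7 ± 1.95).

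Within the 4 ACSL members, the mix of transcripts was set by Acsl1 and Acsl5. Acsl1 made up 74.0% ± 2.39 (fasted control), 73.5% ± 2.29 (fasted LKO), 71.7% ± 7.29 (refed control) and 62.3% ± 2.78 (refed LKO) of their summed CPM per kb (SD, n = 4). Acsl5 made up 23.1% ± 1.88, 24.3% ± 2.09, 23.4% ± 5.53 and 31.5% ± 1.67 in the same order. Refed control spread widely, with Acsl1 shares from 63.4% to 79.3%, and overlapped refed LKO at 58.5% to 64.8%. With the deposited lengths Acsl5 shares did not overlap but nearly touched, at 17.9% to 29.3% in refed control and 29.7% to 33.7% in refed LKO. With transcript lengths the Acsl1 shares were 87.1%, 86.8%, 85.6% and 79.7%, in the same order of groups. The Acsl5 shares were then lower, at 11.6%, 12.3%, 12.1% and 17.2%. Their refed ranges met, at 8.66% to 15.9% in control and 15.9% to 18.9% in LKO. Among the 3 binding members Fabp1 made up 96.8% to 97.4% of the summed level in the group means. Among the 3 uptake members Slc27a2 made up 89.6% to 91.4%. These sums leave out other carriers and transporters: Slc27a5 stood at 1074 CPM in fasted control, where Slc27a2 stood at 1870 CPM. Shares were not tested.

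Libraries also deviated from their own group. Cd36 deviations, in log2 CPM from the group mean, ran from −1.25 in S46 to 1.18 in S47, and Fabp4 deviations from −0.94 in S50 to 1.07 in S48. Fabp2 by contrast stayed between −0.22 and 0.20, Acsl5 between −0.23 and 0.18, and Slc27a4 between −0.22 and 0.18. In the fasted control group Fabp2 libraries differed by no more than 1.03 times, while those of Fabp4 differed by 2.45 times.

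**Figure D4:**
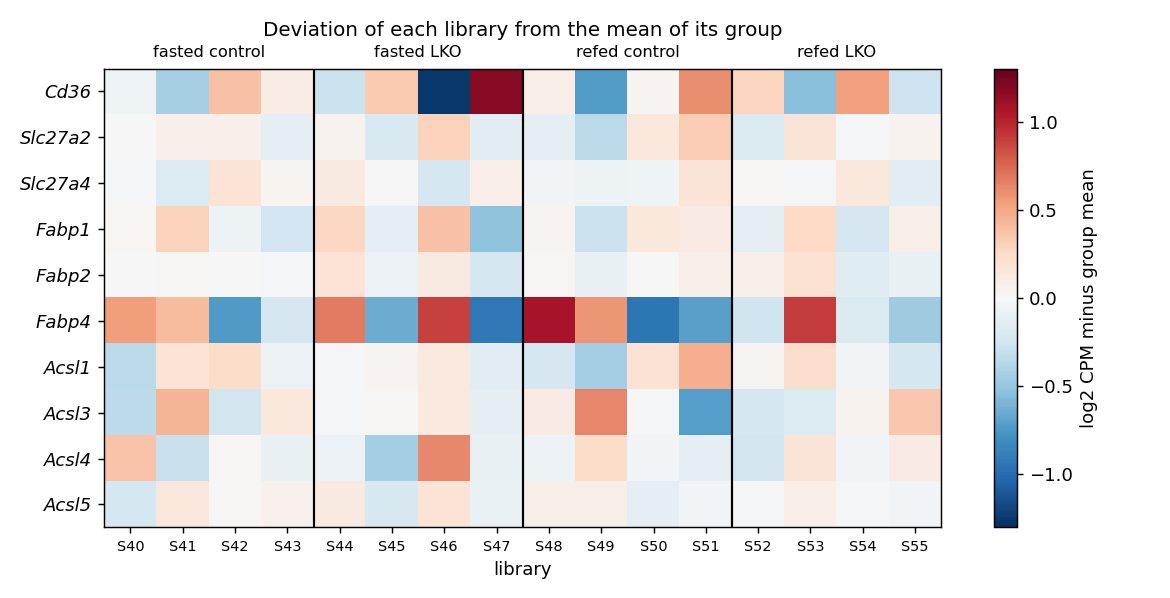
Log2 CPM of each library minus the mean of its group (colour scale, blue below and red above) for the 10 genes (rows) in the 16 libraries (columns, divided by group). Cd36 and Fabp4 carry the strongest colours, with S46 at −1.25 for Cd36 and 0.89 for Fabp4 and S47 at 1.18 and −0.93.

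Other genes of the pathway were read from fixed lists, whose counts stand against 12.2% of all genes called in the fasted genotype contrast and 3.63% in the refed one. Of 3 other SLC27 genes tested, Slc27a1 was higher in fasted LKO (52.5 ± 7.92 against 89.3 ± 28.5 CPM, SD, n = 4; 0.77, SE 0.22, edgeR adjusted p = 0.0325). Slc27a5, the liver transport protein that also makes bile acyl-CoA, was lower (1074 ± 72.1 against 797 ± 44.5 CPM, SD, n = 4; −0.43, SE 0.11, edgeR adjusted p = 0.0196). Slc27a1 fell on refeeding in both genotypes, by 1.48 in control and by 1.54 in LKO (edgeR adjusted p = 9.81e-04 and 2.98e-04). Of 3 other FABP genes tested, only Fabp3, the heart form, was called between the genotypes, at low levels (0.30 ± 0.397 against 2.48 ± 2.72 CPM fasted and 0.12 ± 0.12 against 1.80 ± 0.573 CPM refed, SD, n = 4; edgeR adjusted p = 0.0273 and 0.0413).

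Acyl-CoA binding proteins hold the product of the ACSL reaction, and 4 of the 6 tested were called in the fasted contrast, where 12.2% of all genes were. Dbi, the acyl-CoA binding protein itself, was higher in LKO in both states (313 ± 11.8 against 439 ± 50.5 CPM fasted and 245 ± 24.9 against 370.3 ± 37.9 CPM refed, SD, n = 4; edgeR adjusted p = 0.0047 and 0.00384). Acbd3 (0.52) and Acbd5 (0.35) were higher and Acbd4 (−0.51) lower when LKO was fasted (edgeR adjusted p = 0.0176, 0.037 and 0.0113). Of the 5 other acyl-CoA synthetases tested, Acsm5 was called lower in fasted LKO (−0.42, edgeR adjusted p = 0.0495) and 0 were called in the refed contrast. The edgeR unadjusted p was under 0.05 for 3 and 0 of the 5, with no share of all genes at that level given. Of 5 other uptake genes, Lpl, which frees fatty acids from lipoproteins, was higher when LKO was fasted (0.66, edgeR adjusted p = 0.0475), and Vldlr, which takes up triglyceride-rich particles, was lower whether fasted (−1.41, edgeR adjusted p = 0.00967) or refed (−1.52, edgeR adjusted p = 0.0191).

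Of 10 regulators tested, 2 were called between the fasted genotypes and 1 between the refed genotypes, against 12.2% and 3.63% of all genes. Srebf1 (−2.25) and Mlxipl (−0.55) were called lower in fasted LKO (edgeR adjusted p = 2.38e-04 and 7.74e-04) and 0 were called higher. Srebf1 encodes SREBP1, which drives lipid synthesis genes. Mlxipl, which encodes the carbohydrate sensor ChREBP, was also lower in refed LKO (−0.42, edgeR adjusted p = 0.0115). Ppara itself stood at 46.9 ± 11.3 CPM in fasted control and 63.9 ± 16.2 CPM in fasted LKO (SD, n = 4), a log2 fold change of 0.45 that was not called (edgeR adjusted p = 0.161), and at 50.1 ± 12.8 and 48.7 ± 3.66 CPM when refed (−0.04, edgeR adjusted p = 0.945).

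Genes with the most similar pattern were found by the root mean square difference of log2 CPM, each gene centred on its own mean, over the 16 libraries, among 8894 protein-coding genes. For Fabp2 the closest was Ldha, lactate dehydrogenase A (0.119 log2 units), then Smim4 (0.153), and for Fabp1 they were Tspan31 and Bdh1, a ketone body enzyme (0.159 each). Slc27a2 lay closest to Decr2, a peroxisomal reductase of unsaturated fatty acid oxidation (0.104), and then to Ube4b (0.122). Acsl1 lay closest to Acot4, an acyl-CoA thioesterase with close gene copies that may share reads (0.181), and Optn (0.188). Acsl3 lay closest to the tubulin genes Tuba1c and Tuba4a (0.29 and 0.304), Acsl4 to Ddx39a and Odc1 (0.193 and 0.202), Acsl5 to Gsr and Tmed4 (0.131 and 0.134) and Slc27a4 to BC004004 and Tmbim1 (0.0967 and 0.117). Within the set, Fabp1 and Fabp2 were each other's nearest member (0.207), with SDs in log2 CPM over the 16 libraries of 0.425 and 0.431. Slc27a2 and Slc27a4 were each other's nearest too (0.23), but this difference was close to the SD of Slc27a4 itself (0.252). Slc27a2 and Slc27a4 lay on opposite sides of their group means in 10 of 16 libraries. For each of the 8 members called in some contrast, a gene outside the set was closer than any other member. The search ran over 8894 genes but only 9 other members, so this outcome was likely beforehand and says nothing about the set.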

How the data were processed

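Gene-level counts of 16 liver libraries were analysed. Raw counts were deposited by the authors in 4 tables of 8 libraries; per the submitters' processing notes reads were handled with HISAT2 2.0.5 and mm39, and the counting tool and its use of strand are not given in the sources used here. Coordinates are those of the tables. The authors' gene lengths in bases, also deposited, served for CPM per kb. A further 64 columns with per-library values stayed out.

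Columns S40 to S55 match no title, and the group heading shared by the 2 tables holding each library gave its group. Labels do not say that replicates are separate animals, so p-values measure the spread between these samples. Tables were joined on gene identifier (0 counts differed between tables; 3148 low genes absent from both tables of a library were set to 0 there). In R 4.3.3, genes passing filterByExpr (14488) were scaled by TMM (factors 0.941 to 1.07) and fitted with edgeR 4.0.16 (glmQLFit, glmQLFTest) with the 4 groups as one factor over 16 libraries, for 5 contrasts, with Benjamini-Hochberg adjustment and a threshold of 0.05. SE is the log2 fold change divided by the square root of F. The script was tested on simulated data. Alternatives used RLE or upper quartile factors, other filters, DESeq2 1.42.0, limma-voom (limma 3.58.1), only the compared groups, and each library left out. Log2 CPM used a prior count of 2.

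The members, the lists and the tests were chosen with earlier results of these data known. Named genes are the members, Cpt1a, genes of the pathway lists called between genotypes, the regulators, and the 2 genes most alike in pattern to each called member (predicted genes passed over). Transcript lengths from GENCODE M21 and the pairs of genes in the closing section were added after the values were seen. Promoters come from RefSeq (GRCm38.p6), for 9 of the 10 members.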

Additional observations from a re-analysis of the deposited data

Results flagged for a closer look

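In 40 sets of 4 libraries (10 genes in 4 groups), 2 held a library far from the other three by Dixon's criterion, where chance gives about 1 in 20. Slc27a4 in refed control was at 67.9 CPM in S51 and at 57.6 to 59.0 CPM in the others. Fabp4 in refed LKO was at 26.2 CPM in S53 and at 10.1 to 12.2 CPM in the others.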

How the results depend on the processing

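No paired analysis was possible because the count columns carry no replicate number. Under 3 scalings 0 of 55 estimates for Cpt1a and the members changed sign, and the median of all genes moved by at most 0.02 (log2). Among the members, fasted LKO calls went from 5 to 3 with only the 2 groups compared and to 6 by DESeq2 or after filtering at a 5 CPM mean, and refed LKO calls from 1 to 2 with upper quartile factors, no filter or limma-voom and to 3 after filtering at a 5 CPM mean, by DESeq2 or only the 2 groups compared. Refeeding calls in LKO went from 5 to 3 with no filter or only the 2 groups compared and to 6 by DESeq2, and interaction calls from 0 to 1 (Acsl1) with upper quartile factors, after filtering at a 5 CPM mean or by DESeq2. Leaving out 1 library gave 3 to 5 members (fasted LKO), 1 to 1 (refed LKO), 2 to 3 (refeeding in control), 3 to 5 (refeeding in LKO) and 0 to 1 (interaction).

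Over all genes, DESeq2 called 904 refed genotype genes against 526. The interaction gave 78 genes (45 higher, 33 lower), 469 by DESeq2, 195 after filtering at a 5 CPM mean and 108 with upper quartile factors (43 higher, 65 lower). Leaving out 1 library gave 1048 to 1985 genes in place of 1772 (fasted LKO), 197 to 517 in place of 526 (refed LKO), 1220 to 2483 in place of 2238 (refeeding in control), 1795 to 2448 in place of 2616 (refeeding in LKO) and 8 to 282 (interaction). Counts moved by over 1.5 times without S44 (fasted), without S48, S50, S53, S54 or S55 (refed) and without S40 or S50 (refeeding in control); the interaction was lowest without S48 and highest without S49. The cause of these shifts was not tested. Counting error is largest for Acsl3, at 82 to 583 counts in a library.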

Other observations

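Libraries that were high for Fabp4 within their group tended to be high for Fabp5, the epidermal form of the carriers. Fabp5 is not one of the 10 genes and was picked after its values were seen. Permutation tests were run on the 55 pairs of the 10 genes and Fabp5. They cannot count as support for a gene picked this way, so the pattern is given as values. Fabp5 stood at 7.99, 6.71, 3.48 and 3.83 CPM in S40 to S43, at 10.6, 4.87, 23.7 and 3.54 CPM in S44 to S47, at 14.6, 9.19, 2.47 and 4.82 CPM in S48 to S51, and at 3.89, 12.7, 4.20 and 8.49 CPM in S52 to S55. In log2 CPM, Fabp4 and Fabp5 lay on the same side of their group means in 15 of 16 libraries. Cd36 lay on the side opposite to Fabp5 in 15 of 16 libraries and on the side opposite to Fabp4 in 14 of 16. Among 55 pairs of these 11 genes, Fabp1 and Fabp2 lay on the same side in 12 of 16 libraries, and Slc27a2 and Fabp1 in 13 of 16. Such counts were not particular to these pairs. Cd36 with Slc27a4, Slc27a2 with Fabp2, Fabp2 with Acsl1, Fabp4 with Acsl5 and Fabp1 with Fabp5 also reached 13 of 16. Slc27a4 lay on the side opposite to Fabp5 in 14 of 16 libraries, and opposite to Fabp4 and to Fabp1 in 13. Cd36 lay opposite to Acsl4 in 13 as well.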
